A study of Mus musculus with 2 samples.

Results

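Sarcomeric myosin genes were followed in tumours that formed beneath the skin of C57BL/6 mice from injected cells of Panc02, a line of mouse pancreatic cancer. The set consisted of 10 genes, 5 for fast chains (Myh1, Myh2, Myh4, Myl1 and Mylpf), 3 for slow chains (Myh7, Myl2 and Myl3) and 2 for developmental chains (the embryonic Myh3 and the neonatal Myh8), out of 28784 gene names on the array. Members were taken by gene name, and all 22 of their probes carried the current symbol and none an older alias. The enriched environment pool held tumour RNA of 6 mice assigned to enriched housing when 3 weeks old and kept there until harvest, 5 weeks past injection. Such housing offers animals more space and stimulation than ordinary caging. The standard environment pool held tumour RNA of 6 mice of the same strain and age, injected with the same cells and kept in standard housing. Of each pool 1 array was read in 1 colour, so no difference has a replicate check and none between the housings was tested. All values below describe these 2 pools, the number of arrays limits their precision, and the tumour line and the site beneath the skin were the same in both.

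Muscle myosin is built from a pair of heavy chains, which hold the motor and form the thick filament, and from essential and regulatory light chains that stiffen and tune the neck of the motor. Muscle fibres are classed by the heavy chain they carry. In the mouse the adult fast isoforms are encoded by Myh2, Myh1 and Myh4, the slow isoform, shared with the heart, by Myh7, and the embryonic and neonatal isoforms, which come before the adult ones and return in regenerating fibres, by Myh3 and Myh8. Tumour, stromal and other non-muscle cells use another branch of the myosin II family, encoded by Myh9, Myh10 and Myh14 with their own light chains.

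The members that could be measured in both pools were far lower in the enriched environment pool. Of the 10 members, 8 were well above background on both arrays, and 8 of these 8 lay 2-fold or more below their standard environment level, beside 9.46% of all 20852 genes measured on both arrays. By probe, 15 of the 15 member probes measured on both arrays did so, beside 8.88% of all probes. A level is the log2 intensity of a probe minus that of the 75th percentile on the same array, averaged over the probes of a gene, and a difference is the level in the enriched minus the level in the standard environment pool. The median difference of the 8 measured members was -7.18, or 145-fold, while that of all measured genes was 0.03. The other 2 members, Myh3 and Myl2, were well above background only on the standard environment array, and their bounds lay in the same direction. Probes of the 10 members took 0.0263% of the summed signal of all probes in the enriched environment pool and 2.70% in the standard environment pool. Without scaling between the arrays the background count shifted to 1211 genes lower and 2904 higher, against 1972 and 1190 with it, because the median of all genes then lay at 0.42, and the member median was -6.80. In tumour RNA of this kind, fewer cells of a type and less RNA per cell cannot be told apart.

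The arrays were alike in the spot measures given here, and the RNA quality of the pools was not examined. Leaving out controls, 43379 spots remained, of which 77.4% on the enriched and 77.2% on the standard environment array passed as well above background and 0 on either were saturated. For 245 probes spotted more than once, the median SD between their spots was 0.07 on the enriched and 0.06 on the standard environment array, while the SD of the difference between probes for the same gene had a median of 0.17 over 6608 genes. These figures cover technical error and not the spread between mice. Both arrays lay on 1 slide and were scanned together, per the file headers. Markers of carcinoma epithelium were present in both pools, with 11 of 11 genes measured, and 11 of 11 were higher by 2-fold or more in the enriched environment pool, beside 5.71% of all measured genes, with a median difference of 2.07.

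**Figure D1:**
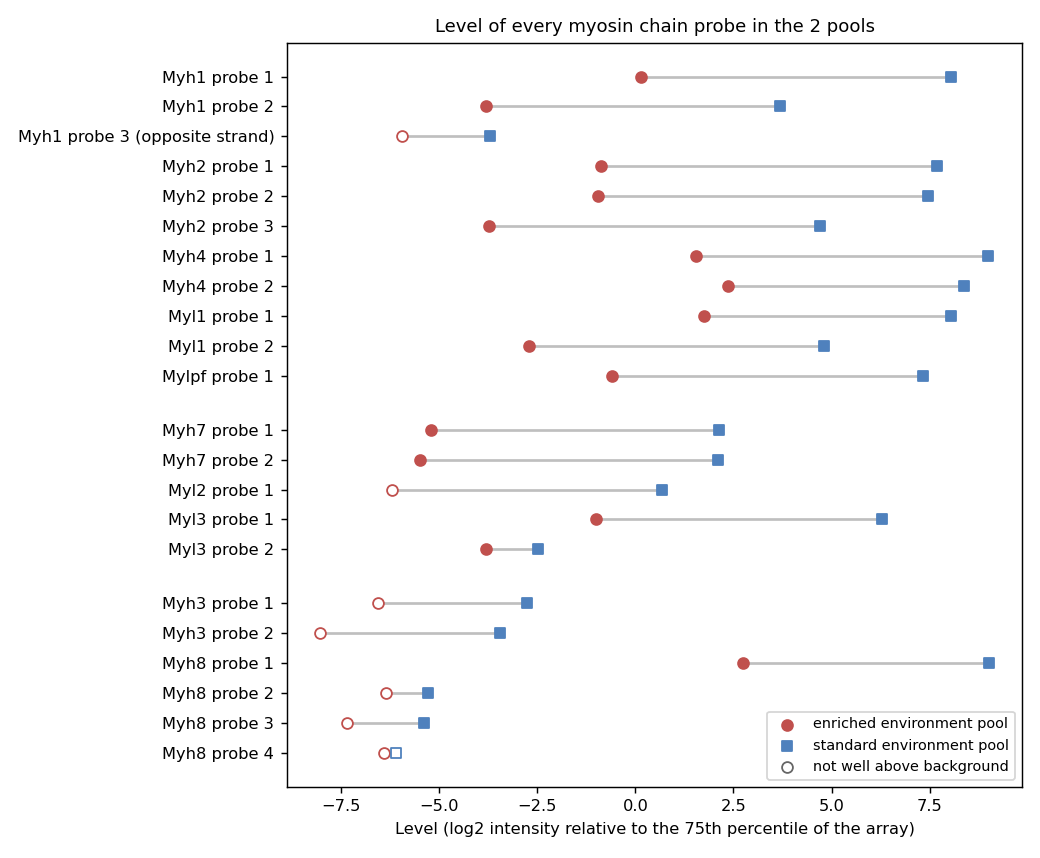
Each row is 1 of the 22 myosin chain probes, with its level in the enriched (circle) and the standard environment pool (square) as log2 intensity above or below the array's 75th percentile. Fast chains are at the top, slow chains in the middle and developmental chains at the bottom, and open symbols mark probes that were not well above background. Every circle lies left of its square, and 15 probes have both symbols filled.

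Among fast heavy chains, Myh2 had the largest difference of the set and Myh4 the smallest of the adult fast genes. Myh2, the heavy chain of fast oxidative fibres, was at -1.85 in the enriched and 6.62 in the standard environment pool, a difference of -8.47 (SD between 3 probes 0.09), or 354-fold. Its 3 probes read intensities of 510, 539 and 73.9 in the enriched environment pool, against 131294, 155818 and 19720 in the standard environment pool. All 3 gave nearly the same ratio, but the probes reading 510 and 539 overlap on the genome and are not independent readings. The gene ranked 10th from the lowest among all measured genes. Myh1, the heavy chain of fast fibres of intermediate type, was at -1.84 in the enriched and 5.87 in the standard environment pool, a difference of -7.71 (SD between 2 probes 0.29). Without a filter on dim probes, which brings in an opposite-strand probe, the Myh1 difference was -5.88. Myh4, the heavy chain of the fastest glycolytic fibres, was at 1.94 in the enriched and 8.69 in the standard environment pool, a difference of -6.74. The probes of Myh4 did not give 1 ratio, with differences of -7.46 and -6.02 (SD 1.01), more than the usual spread between probes of a gene. They read intensities of 2854 and 5022 in the enriched environment pool, against 384052 and 250042 in the standard environment pool. What part of the Myh4 signal remained in the enriched environment pool, 0.569% or 1.54% of the standard level by these probes, was therefore less certain than the direction.

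The fast light chains followed the fast heavy chains. Mylpf, the regulatory light chain of fast fibres, was at -0.60 in the enriched and 7.33 in the standard environment pool by its only probe, a difference of -7.93 or 243-fold. Myl1, the essential light chain of fast fibres, was at -0.49 in the enriched and 6.43 in the standard environment pool, a difference of -6.91. As with Myh4, its 2 probes disagreed, at -6.31 and -7.52 (SD 0.86). The 5 fast chains had a median difference of -7.71 and ranged from -8.47 to -6.74. By these gene means, between 0.282% and 0.935% of the standard environment level was left. By single probes more was left for Myh4, 1.54%, and for Myl1, 1.26%.

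The slow chains were lower by similar amounts wherever a probe was bright in the standard environment pool. Myh7, the heavy chain of slow fibres and of the mouse heart before birth, was at -5.34 in the enriched and 2.11 in the standard environment pool, a difference of -7.45 (SD between 2 probes 0.20) or 175-fold. Those 2 probes overlap on the genome and are not independent readings. Myl2, the regulatory light chain of slow and ventricular muscle, read an intensity of 13.4 in the enriched environment pool, not well above background, and 1202 in the standard environment pool, so that in the enriched environment pool it was at least 117-fold lower. Such a bound sets the standard level against the higher of the probe's own level and the lowest level well above background on the enriched environment array, -6.21. Bounds are approximate, since some probes above that level, such as a Myh1 probe at -5.93, were not called well above background. Myl3, the essential light chain of slow and ventricular muscle, gave differences of -7.29 and -1.34 by its 2 probes, and their mean of -4.31 (SD 4.21) describes neither. The first of these read 492 in the enriched and 58915 in the standard environment pool, and the second 69.9 in the enriched and 135 in the standard environment pool. The median of the 2 measured slow chains was -5.88, a value set by the second Myl3 probe. With the probe nearest the 3′ end of each gene, an alternative chosen after seeing the data, it was -7.30, against -7.92 for the fast chains. Differences of Myh7 and of the first Myl3 probe lay within the range of the fast chains, but that of Myh7, dim in the enriched environment pool, was -5.50 with normexp background correction and -5.84 without background correction, outside that range. Under normexp the fast chains ran from -8.04 to -6.69. With 1 array per pool, whether slow and fast chains differed could not be tested.

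The developmental chains were the least clearly measured. Myh3, the embryonic heavy chain, read 10.5 and 3.78 by its 2 probes in the enriched environment pool, neither well above background, against 111 and 69.1 in the standard environment pool. In the enriched environment pool it was thus at least 8.58-fold lower. Myh8, the neonatal heavy chain, was at 2.74 in the enriched and 9.01 in the standard environment pool by the only 1 of its 4 probes that was well above background on both arrays, a difference of -6.27 or 77.2-fold. That probe read 6575 in the enriched and 388222 in the standard environment pool. The other 3 Myh8 probes read from 6.09 to 12.0 in the enriched environment pool and up to 19.3 in the standard environment pool. One of them was above background on neither array, and the other two only on the standard environment array, with bounds of 1.76-fold and 1.89-fold. The probe above background on neither array and that with the 1.89-fold bound were designed on cDNAs and matched Myh8 by name only. The Myh8 result therefore rests on 1 probe. Whether this probe, or those of Myh1, Myh2 and Myh4, also bind transcripts of neighbouring heavy chain genes was not tested, since the probe letters were not analysed here. Without a filter on dim probes the Myh8 difference was -2.40.

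In Myh8 and Myl3 the probes with small differences lay farther from the 3′ end, and in Myh4 and Myl1 they did not. The array's annotation places probes on the mm7 build, without exon or UTR annotation. The Myh8 probe with the difference of -6.27 lies at the 3′ end of the set on chromosome 11, from 67389989 to 67390048, and the other 3 lie 13.6, 23.5 and 27.6 kb nearer the 5′ end. The Myl3 probe with -7.29 spans 110466830 to 110467124 on chromosome 9, and the one with -1.34 lies 5.54 kb nearer the 5′ end, from 110461523 to 110461582. Distance alone did not separate the probes, since in Myh1 a probe 14.1 kb from the 3′ one gave -7.50 against -7.92, and in Myl1 and Myh4 the probe farther from the 3′ end gave the larger difference. The cause was not tested.

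**Figure D2:**
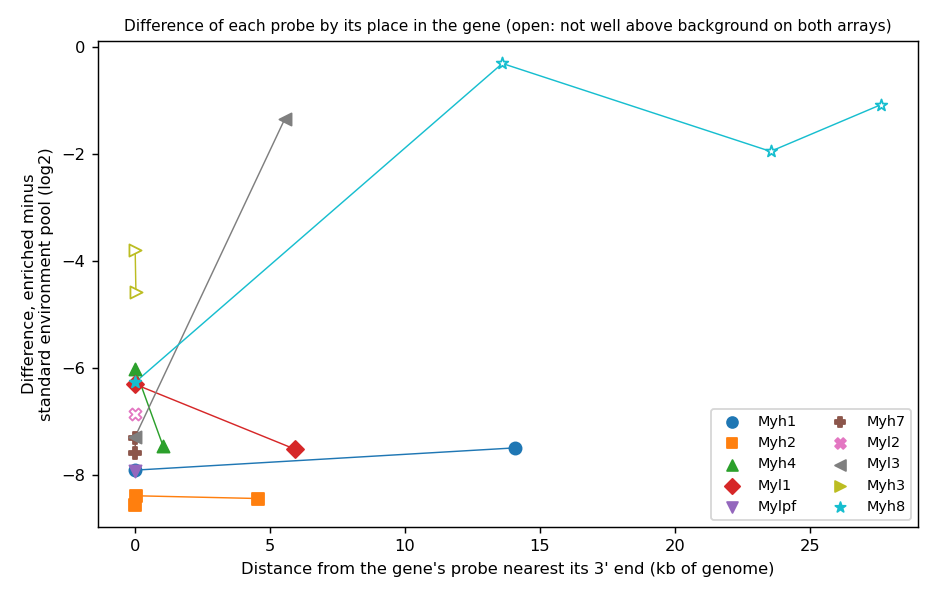
The difference of each probe on the strand of its gene (vertical, log2, enriched minus standard environment pool) is plotted against its distance from the gene's probe nearest the 3′ end (horizontal, kb of genome), with lines joining probes of 1 gene. Open symbols are probes not well above background on both arrays. The Myl3 probe at 5.54 kb and 3 Myh8 probes lie above -2, and the distant probes of Myh1, Myh2 and Myl1 stay below -7.

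A probe named Myh1 was laid out on the opposite strand and is no measure of Myh1 itself. It lies on chromosome 11 from 67306066 to 67306125 on mm7, just past the sense probe at 67306002 to 67306061, and was designed on the cDNA AK009974. It read 16.1 in the enriched environment pool, not well above background, and 58.0 in the standard environment pool, a bound of 4.71-fold. Another opposite-strand probe, between the Myh1 sense probes, for the cDNA AK009488 on chromosome 11 from 67293229 to 67293288, was likewise well above background only in the standard environment pool, with levels of -8.52 in the enriched and -4.34 in the standard environment pool and a bound of 3.65-fold. Upstream of the Myh2 probes, a sense probe for the cDNA AK036437, from 67255652 to 67255711, was at -6.01 in the enriched and -2.03 in the standard environment pool, a difference of -3.98. Its size is uncertain, since the enriched level lies close to the lowest level well above background on that array, -6.21. Between Myh6 and Myh7 on chromosome 14, a probe for the cDNA AK043575 on the strand opposite to both, from 49820355 to 49820414, was at -5.11 in the enriched and -4.21 in the standard environment pool, a difference of -0.90. These 3 cDNAs are not members and were looked up after the member values were seen, because they lie between myosin probes.

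Genes next to the myosin loci did not share the low values. Myh3, Myh2, Myh1, Myh4 and Myh8 stand next to each other on chromosome 11, and Myh6 beside Myh7 on chromosome 14, by the gene order of the RefSeq table. Next to the chromosome 11 cluster, Sco1, Adprm and Tmem220 on the Myh3 side differed by -0.02, 0.18 and 0.19, and Gas7 and Glp2r on the other side by 0.51 and -0.69. Taking the 3 nearest protein-coding genes on each side of every myosin locus, 27 were measured, with a median of 0.10. Of these, 2 lay below by 2-fold or more, namely Cmtm5 beside Myh6 at -1.50 and Acadl, which encodes an enzyme of fatty acid oxidation, beside Myl1 at -1.36, while Efs, on the Myh6 side of that pair, was higher at 1.21. These neighbours were chosen by position and not by value. Among all measured genes, 9.46% lay below and 5.71% above by 2-fold or more.

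**Figure D3:**
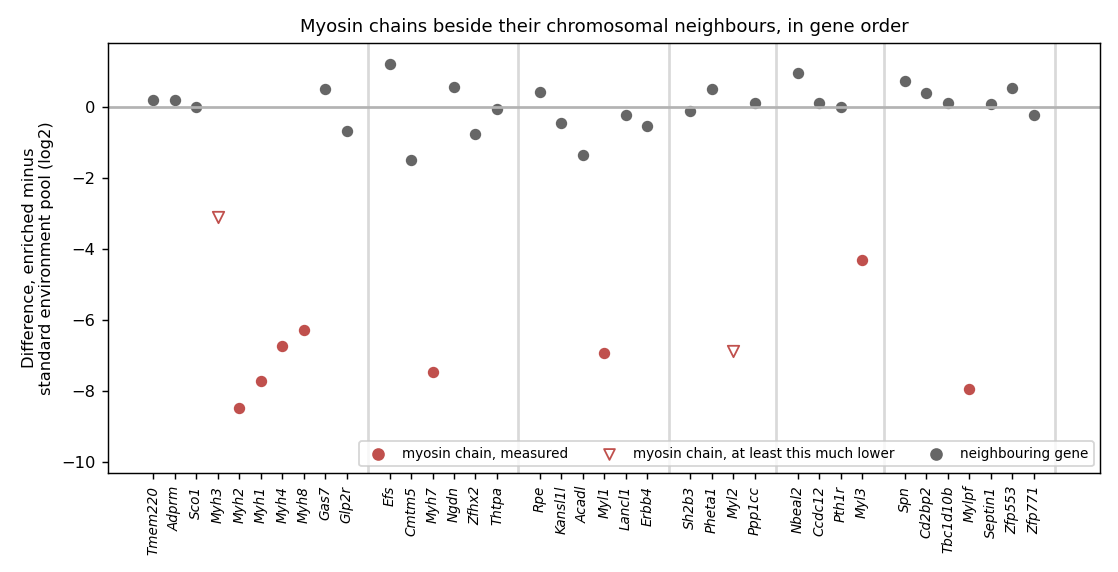
Differences (log2, enriched minus standard environment pool) of the myosin chains (red) and of up to 3 measured protein-coding neighbours on each side (grey) are drawn in gene order, with lines between loci. Open triangles are approximate bounds, so that Myh3 and Myl2 lie at about their mark or below. Neighbours range from -1.50 to 1.21, and every myosin chain lies below them.

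Promoter windows of the fast chains and of Myh8 are shown to let their letters be compared. The slow chains and Myh3 were lower as well, with Myh7 at -7.45, but their windows are not shown. Each window is the 250 bases before the transcript start in RefSeq on GRCm38.p6, which held all 10 members. Capitals mark a run of 14 bases, ttctaattatatcc, found in all 4 chromosome 11 windows of adult and neonatal chains, matches to the MEF2 motif, and CAGCTG, an E-box form of the general motif CANNTG. The windows are chr11:67170777-67171026 (Myh2), chr11:67199852-67200101 (Myh1), chr11:67237562-67237811 (Myh4) and chr11:67276874-67277123 (Myh8), all on the plus strand, chr1:66945057-66945306 (Myl1, minus strand) and chr7:127211358-127211607 (Mylpf, plus strand).
Myh2: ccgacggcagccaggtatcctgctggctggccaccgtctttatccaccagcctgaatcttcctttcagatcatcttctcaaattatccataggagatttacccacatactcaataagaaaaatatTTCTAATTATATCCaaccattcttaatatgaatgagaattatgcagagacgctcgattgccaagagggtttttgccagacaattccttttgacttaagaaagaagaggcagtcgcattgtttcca
Myh1: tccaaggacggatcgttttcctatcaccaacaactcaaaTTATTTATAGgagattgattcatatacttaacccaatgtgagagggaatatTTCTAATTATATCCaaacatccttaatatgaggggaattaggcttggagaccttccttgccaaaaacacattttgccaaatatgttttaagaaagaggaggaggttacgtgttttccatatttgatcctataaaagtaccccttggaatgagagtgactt
Myh4: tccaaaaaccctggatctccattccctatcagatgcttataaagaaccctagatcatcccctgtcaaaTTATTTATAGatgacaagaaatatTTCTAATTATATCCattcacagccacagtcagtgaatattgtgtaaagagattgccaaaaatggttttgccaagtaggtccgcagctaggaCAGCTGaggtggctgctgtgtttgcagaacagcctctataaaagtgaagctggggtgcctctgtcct
Myh8: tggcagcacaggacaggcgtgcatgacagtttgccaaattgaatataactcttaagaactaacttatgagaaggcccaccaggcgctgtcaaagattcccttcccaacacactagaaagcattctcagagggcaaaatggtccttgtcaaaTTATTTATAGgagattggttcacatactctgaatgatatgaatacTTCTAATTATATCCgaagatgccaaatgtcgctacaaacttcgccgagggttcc
Myl1: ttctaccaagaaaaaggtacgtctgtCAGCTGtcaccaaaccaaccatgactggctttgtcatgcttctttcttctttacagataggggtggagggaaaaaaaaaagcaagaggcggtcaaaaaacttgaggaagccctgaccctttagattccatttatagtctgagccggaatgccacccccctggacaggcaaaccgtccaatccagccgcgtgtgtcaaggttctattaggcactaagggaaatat
Mylpf: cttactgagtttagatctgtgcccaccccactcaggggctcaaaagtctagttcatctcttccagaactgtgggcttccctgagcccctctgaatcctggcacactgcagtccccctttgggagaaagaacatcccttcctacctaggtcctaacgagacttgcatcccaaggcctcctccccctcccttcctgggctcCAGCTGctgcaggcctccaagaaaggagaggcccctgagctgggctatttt
The 14-base run was in 4 of 32851 such windows of the mouse genome, those of Myh2, Myh1, Myh4 and Myh8, where it began 125, 160, 158 and 54 bases before the start. It was noticed in these sequences and then counted. The MEF2 motif, searched on both strands, matched with the same 10 letters, TTATTTATAG, in Myh1, Myh4 and Myh8, which is 3 of 10 members beside 2.92% of all windows. CAGCTG was found in 4 members (Myh4, Myl1, Myl2 and Mylpf) beside 13.0% of windows, and CANNTG, which includes it, in 8 members beside 66.2%. Members are counted by gene, over 12 windows, since Myh7 and Myl2 have more than 1. A match in any window of a member counted, whereas the background is a share of windows. TATAAA was in 6 members beside 12.4% of windows, in Myh8, Myl1 and Myl2 on the reverse strand only. In Myh1, Myh4 and Myh8 a TATAAA match on the reverse strand overlaps the MEF2 match. CATTCC, the core of the MCAT motif, was in 5 members beside 12.6% of windows, in Myh1, Myh7 and Myl1 on the reverse strand only. The CArG motif was in 2 members (Myh4 and Myl3) beside 1.47%. These are matches of letters, and nothing about binding was measured. Myh2, with the largest difference of the set, held neither a MEF2 nor a CANNTG match in this window.

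Myosin II chains of non-muscle and smooth muscle cells did not share the difference. Of 8 such genes, 8 were measured, 0 were at least 2-fold apart in either direction, and the median was 0.02. Among all measured genes 9.46% were that much lower and 5.71% higher, so in so few genes this count alone says little. Myh9, the main non-muscle heavy chain, was at 3.56 in the enriched and 2.67 in the standard environment pool, a difference of 0.89. Myl6, the essential light chain that pairs with non-muscle heavy chains, was higher by 0.44 and Myl9, a regulatory light chain of smooth muscle and stromal cells, by 0.32, and the non-muscle heavy chain Myh10 fell by 0.62. These 4 kept their direction over 12 processing alternatives, in which Myh9 ranged from 0.63 to 1.28. Myh11, the smooth muscle heavy chain, differed by -0.16, Myl12a by -0.19, Myh14 by 0.04 and Myl12b by 0.00, and each of these changed sign under some alternatives. The 8 genes took 0.449% of the summed signal in the enriched and 0.295% in the standard environment pool.

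Striated chains outside the set were dim or differed less. Myh6, the heavy chain of the adult heart, was well above background only in the standard environment pool, with levels of -6.89 in the enriched and -2.82 in the standard environment pool and a bound of 10.5-fold by either probe. In the array's annotation both Myh6 probes also carry the accession of Myh7, so a Myh6 signal apart from Myh7 cannot be claimed. Among light chains, Myl4, the atrial and embryonic essential chain, differed by -1.28 over 2 probes, Myl6b differed by -0.28 and the atrial regulatory chain Myl7 by 0.63. Myl10 was above background only in the standard environment pool, and Myh13, the extraocular heavy chain next to Myh8, in neither.

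Most genes for proteins that work with the myosin chains differed along with them at the RNA level. Among thick filament partners, 10 of 11 measured genes passed 2-fold in the lower direction, beside 9.46% of all measured genes. The list's median difference was -4.85. Mybpc1, the slow-type myosin-binding protein C, differed by -8.67, the M-band protein gene Myom2 by -8.39 and Mylk2, the kinase that phosphorylates the skeletal regulatory light chain, by -7.98, while the cardiac-type Mybpc3 differed by 0.47. Of the fast fibre partners, which share Mybpc2 with the thick filament list, 10 of 10 passed 2-fold in the lower direction. Their median of -7.91 lay close to the fast chains' -7.71. They were led by the calcium buffer gene Pvalb at -8.25, Myoz1 at -8.16 and the calcium pump gene Atp2a1 at -8.10, and the least different was the fast troponin I gene Tnni2 at -3.08. Of the slow fibre partners, 6 of 8 measured genes did so, and their median was -2.33. Mybpc1, which is also on the thick filament list, Csrp3 at -6.04 and the slow troponin T gene Tnnt1 at -3.44 had the largest differences among those measured on both arrays, while Tpm3 differed by 0.21. Myoz2 and Casq2 were well above background only in the standard environment pool, with bounds of at least 20.7-fold and 15.8-fold lower in the enriched environment pool. Atp2a2, whose pump is made in most tissues, differed by 0.75. Whether the fast and slow partner lists differed was not tested, and the slow list's median leaves out both genes with bounds.

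**Figure D4:**
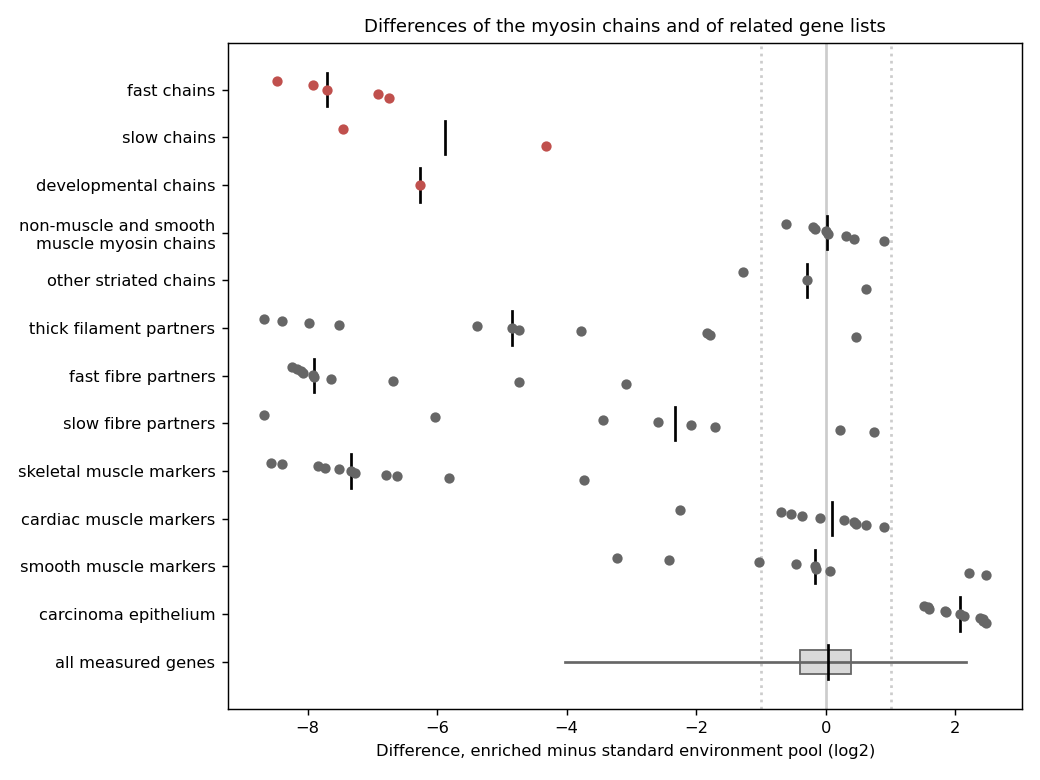
Points are genes measured on both arrays, placed by their difference (log2, enriched minus standard environment pool), with black lines at list medians and myosin chains in red. The lowest row gives all measured genes as quartiles (box), median and the span from percentile 1 to percentile 99 (line), and dotted lines mark 2-fold. The 8 measured myosin chains lie below -4, whereas non-muscle and smooth muscle myosin chains lie within 2-fold of 0.

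Markers of whole muscle tissue moved with the myosin chains, and their part in the result was not tested. Of 12 skeletal muscle markers, 11 were measured. In the enriched environment pool 11 lay below by 2-fold or more, beside 9.46% of all measured genes. Their median difference was -7.33, from Ckm at -8.56, Mb at -8.40 and Xirp2 at -7.85 to Jph1 at -3.73. Of all probe signal, that list made up 0.00650% in the enriched and 1.08% in the standard environment pool. Cardiac muscle markers showed no common direction, with a median of 0.10 over 10 measured genes that ran from -0.15 to 0.48 over the alternatives. They took 0.00427% of the summed signal in the enriched and 0.00684% in the standard environment pool. Actc1, an actin of heart and of developing or regenerating skeletal muscle, differed by -2.24 and was the only measured cardiac marker past 2-fold. Tnnt2 differed by 0.90, Tbx5 by -0.70 and Nkx2-5 by -0.08. Tbx5 and Nkx2-5 were dim in both pools, at -5.72 and -5.09 in the enriched and -5.02 and -5.01 in the standard environment pool. A stricter filter on dim probes left 5 of the 10 genes, with a median of 0.47. Myh6 and Ryr2 are not in either median, since neither was well above background on both arrays. Whether the dim cardiac markers differed between the pools is therefore uncertain. Smooth muscle markers had a median of -0.16 over 9 genes and split, with Synpo2 at -3.23 (SD between 3 probes 3.70) and Lmod1 at -2.41 lower, Cnn1 at 2.48 higher and Actg2 at 0.06.

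Most regulators of muscle formation were lower in the enriched environment pool or dim, and Mymk differed little. Myf6, a myogenic transcription factor kept in mature fibres, was at -4.72 in the enriched and 2.16 in the standard environment pool, a difference of -6.88. Mef2c differed by -3.33, the satellite cell factor Pax7 by -1.54, and Mymk, which drives myoblast fusion, by -0.43. Myod1 and Myog, factors of myoblast commitment and differentiation, were well above background only in the standard environment pool, at levels of -2.04 and -3.05 there, and Myf5 and Pax3 in neither pool. Lists of brown adipocyte and erythroid markers moved as well, and which cells their signal came from was not tested. Brown adipocyte markers lay below by 2-fold or more in 5 of 5 measured genes, beside 9.46% of all measured genes. Their median difference was -5.91, and they took 0.00214% of the summed signal in the enriched and 0.150% in the standard environment pool. Erythroid markers lay below by 2-fold or more in 5 of 5 measured genes, beside the same share. Their median was -5.45, and they took 0.00426% of the signal in the enriched and 0.197% in the standard environment pool.

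By their pair of levels, the 5 genes nearest to the median of the measured myosin chains, -1.22 in the enriched and 6.52 in the standard environment pool, were Pgam2, Mb, Fabp3, Cacna1s and Atp2a1. Likeness was the distance between pairs of levels over the 2 arrays, and ranged from 0.30 for Pgam2 to 0.73 for Atp2a1. Their differences ran from -8.40 for Mb to -7.26 for Cacna1s. Across all measured genes, 97 were lower by 6 or more on the log2 scale, among them 7 of the 8 measured myosin chains, the exception being Myl3.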

How the data were processed

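Pooled total RNA was labelled with Cy3 and hybridised to an Agilent whole mouse genome array, per the labels' protocols. The deposited scanner files give a processed intensity per spot, from which a spatial trend of background had been taken off, per the file headers. The software was, per the submitters' processing notes, Agilent Feature Extraction, version 10.7.1.1. A deposited table of log2 values for 30319 probes, whose scaling and centring are not given in the sources used here, served as an alternative. Its column medians were 8.56 for the enriched and 8.54 for the standard environment pool, and it correlated with log2 of the processed intensity at r = 1.00 in both, so its direction is that of the scanner values.

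Control spots and spots marked as outliers were left out, log2 intensities were set relative to each array's 75th percentile (984 for the enriched and 753 for the standard environment array), and probes well above background on both arrays were averaged per gene. Gene symbols were updated through RefSeq accessions (GRCm38.p6). Since each group had 1 array, genes were counted past 2-fold and no p-value was made. All members are named, and of each myosin, muscle and muscle-partner list the 3 largest measured differences and the smallest, with others added after their values were seen. The brown adipocyte, erythroid and carcinoma epithelium lists are given by counts, medians and signal shares. Members and lists were chosen with earlier results of these data known. The steps were tested on simulated data. Python 3.11.15 and, for the normexp alternative (offset 50), limma 3.58.1 were used.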

Additional observations from a re-analysis of the deposited data

How the results depend on the processing

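All measured members stayed 2-fold or more below their standard environment level under 12 alternatives and 2 more chosen after seeing the data. Sizes moved more. The spread used to call a value moved was the median SD between probes of a gene, 0.17, since no replicates exist. The median of the measured members was -6.77 with normexp, -6.68 without background correction, -6.80 without scaling, -7.00 with quantile normalization, -6.81 without a filter on dim probes and -6.89 with Myh3 and Myl2 at their bounds. The median of the fast chains was -7.12, -7.24, -7.32, -7.53 and -6.91 in the first 5 of these, -7.51 in the authors' deposited table, and -7.92 with the brightest probe or the probe nearest the 3′ end. That of the slow chains was -4.77 with normexp, -4.97 without background correction, -5.50 without scaling, -6.87 without a filter or with Myl2 at its bound, and -7.30 with the brightest or the 3′ probe. That of the developmental chains was -5.88 without scaling, -5.78 with quantile normalization, -5.75 in the authors' deposited table, -3.29 without a filter and -4.69 with Myh3 at its bound. Non-muscle and smooth muscle chains had a median of 0.40 without scaling and 0.19 with quantile normalization or the authors' deposited table. Over all genes, 669 were at least 2-fold higher with normexp, 714 without background correction and 2904 without scaling, and 1211 were lower without scaling and 3796 without a filter. The median of all genes was 0.11 with quantile normalization, 0.12 in the authors' deposited table and -0.11 without a filter. The cause was not tested where the construction does not show it. Signal over background limits Myh3, Myl2, 3 of the 4 Myh8 probes and the opposite-strand Myh1 probe, whose enriched environment signals were not well above background. Among partners and markers, the alternatives took Mybpc1 up to -6.99, Csrp3 to -4.23, Myf6 to -5.40, Xirp2 to -6.77, Jph1 to -2.75, Mef2c to -2.44 and Pax7 to -0.84, Synpo2 from -6.45 to -2.64 and Myl6b from -0.89 to 0.10.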
